A study of Rattus norvegicus with 22 samples.

Results

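Cx3cl1 encodes fractalkine, the only chemokine of the CX3C type, and Cx3cr1 encodes its receptor. The probe sets described were those whose platform annotation gives either gene as their symbol, and 4 of the 1050 probe sets in the table met this rule. All 4 belong to Cx3cl1 (gene ID 89808), 1 of 643 genes that the annotation names there, and 0 belong to Cx3cr1, so the receptor was not analysed here. They are named AF030358_g_at, rc_AA800602_s_at, AF030358_at and rc_AI227647_s_at. Cx3cl1 was chosen by the measured difference of AF030358_g_at between the labelled neuron groups and by the disagreement of its probe sets, so those values are given as a description, with no test.

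Fractalkine differs from most other chemokines in being made as a membrane protein that carries its chemokine domain on a mucin-like stalk. Metalloproteases of the ADAM family cleave the stalk and release a soluble form. In the central nervous system the ligand is made mainly by neurons and the receptor, which couples to inhibitory G proteins, is carried mainly by microglia, so the pair is known as a route of signalling between these cells, in the spinal cord as elsewhere.

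The arrays measured RNA of cells cut by laser from the ventral horn of the spinal cord of neonatal Wistar rats, in the first days after birth. Descending commissural interneurons, whose axons cross the midline and run caudally (CINs), filled 7 arrays, motoneurons (MNs) filled 7, and cells taken at random from the ventral horn (MIX), the control samples of the study, filled 8, so a MIX array can hold cells of either class and others. CINs and MNs were recognised by a fluorescent dextran taken up through their cut axons and carried back to the cell bodies, and the study gives each array its own animal. The RNA of 50 to 100 cells per array for CINs, 55 to 250 for MNs and 95 to 187 for MIX was amplified in a pair of rounds before hybridization, so each value is an average over a small pool of cells, and fewer cells that express a gene cannot be told apart from less RNA in each cell.

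Array medians of the deposited intensities lay between 43.5 and 50.9, and precision is limited by how many arrays there are. The labels were checked on markers of both neuron classes, in limma fits over the whole table, where a probe set was called if its p after Benjamini-Hochberg adjustment was under 0.1. Of 12 probe sets of motoneuron genes, 6 were called lower in CINs than in MNs and 0 were higher, among them U09211_at of Slc18a3, the vesicular acetylcholine transporter, at 566 ± 457 in CINs against 4040 ± 927 in MNs (SD, n = 7 each). The dim probe set of Slc18a3, X80395cds_s_at, gave 39.8 ± 3.18 in CINs and 50.4 ± 13.8 in MNs. Of 4 probe sets of interneuron genes, 3 were called higher in CINs, among them one of Slc32a1, the vesicular transporter of GABA and glycine, at 514 ± 131 in CINs and 125 ± 113 in MNs. The interneuron list also held Penk and Npy, which the study found in CINs on these same arrays and called surprising. Among the genes higher in CINs, the study names only Slc32a1 as linked to these cells before. The other calls in this list therefore do not check the labels.

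AF030358_g_at was among the brightest probe sets of the table, and the only one of the 4 whose signal set the labelled groups apart. Its signals on the 7 CIN arrays were 2116, 2785, 2723, 3300, 2589, 2336 and 2176, in the order of the array numbers. On the 7 MN arrays they were 2142, 742, 1312, 1586, 1366, 1159 and 896. On the 8 MIX arrays they were 2177, 1968, 1619, 1394, 1798, 2015, 1518 and 2040. The CIN signals were thus the high ones, the MN signals the low ones apart from MN array 1, and the MIX signals, from 1394 to 2177, overlapped the upper MN and the lower CIN signals. MN array 1 (2142) was the source of all overlap between the labelled groups, since it lay just above CIN array 1 (2116) and below every other CIN array.

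**Figure D1:**
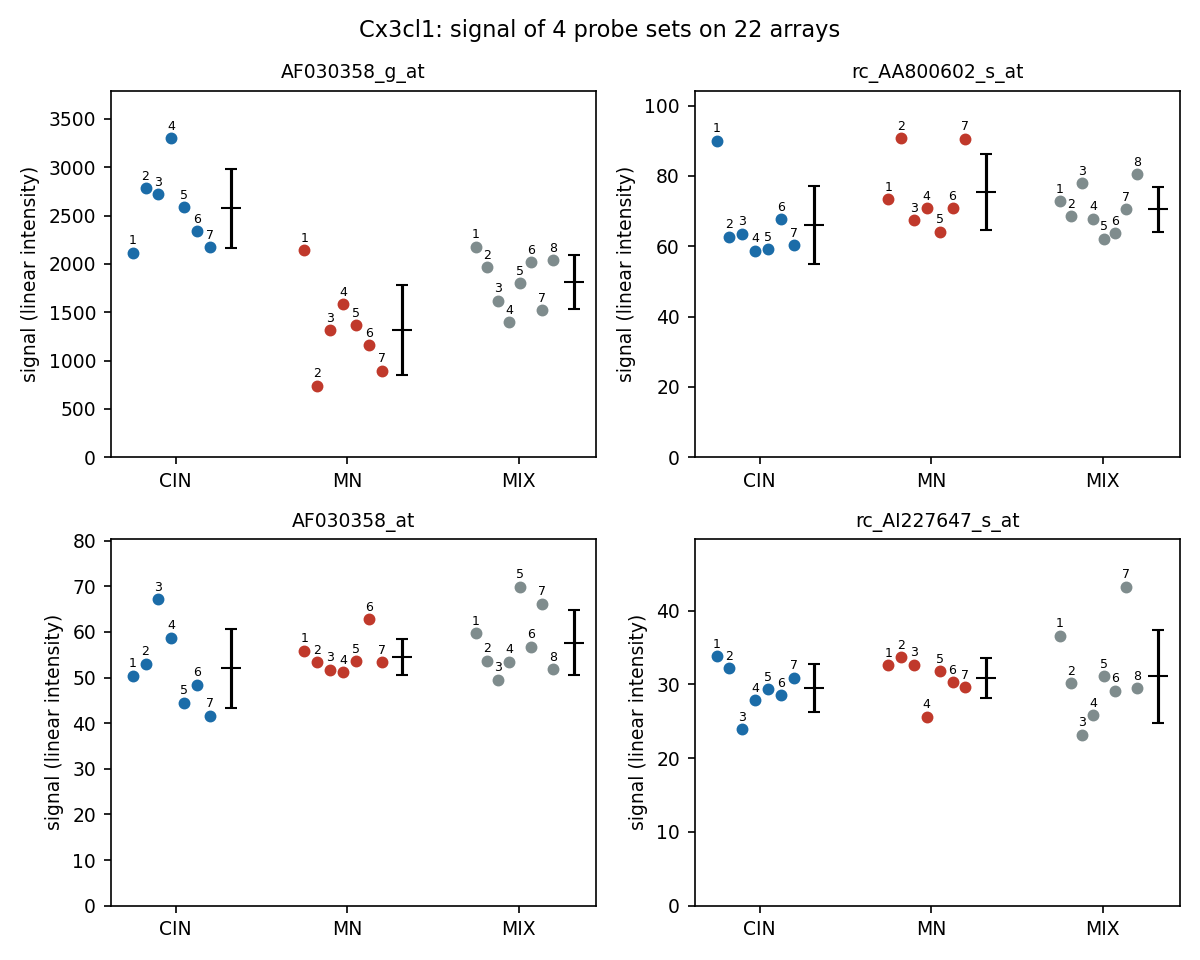
Signal (linear intensity, vertical axis from 0) of the 4 Cx3cl1 probe sets on 7 CIN, 7 MN and 8 MIX arrays, with the array number above each point and the mean ± SD in black beside each group. AF030358_g_at separates CIN from MN except for MN array 1, and in the other panels the ranges of the groups overlap, with the CIN signal of rc_AA800602_s_at the lower in most pairs of CIN and MN arrays.

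The mean signal of AF030358_g_at was 2575 ± 412 in CINs (SD, n = 7), 1315 ± 463 in MNs (n = 7) and 1816 ± 280 in MIX (n = 8), with medians of 2589, 1312 and 1883. Comparing each CIN array with each MN array, the CIN signal was the higher in 48 of 49 pairs, and 6 of the 7 CIN arrays lay above every MN array. The log2 difference, CIN minus MN, was 1.03 (SE 0.20), a 2.04-fold higher geometric mean in CINs. The spread was not the same in each group. On the log2 scale the SD was 0.51 within MNs and 0.23 within both CINs and MIX, so that the MN arrays, which ran from 742 to 2142, were the least alike.

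The random sample of the ventral horn gave levels between those of the labelled neurons. CINs exceeded MIX by 0.50 on the log2 scale (SE 0.17), a 1.42-fold difference, with the CIN array the higher in 54 of 56 pairs and 5 of 7 CIN arrays above all MIX arrays. MNs differed from MIX by -0.53 (SE 0.17), that is 1.44-fold lower in MNs, with the MN array the higher in 9 of 56 pairs. Both comparisons use the same MIX arrays, and the order CIN, MIX, MN is therefore a description of these 3 group means.

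The remaining probe sets of Cx3cl1 did not show this order. AF030358_at is named after the same sequence record as AF030358_g_at. Its signals were 50.4, 53.0, 67.2, 58.8, 44.5, 48.4 and 41.7 on the CIN arrays and 55.9, 53.4, 51.7, 51.2, 53.5, 62.7 and 53.4 on the MN arrays, and on MIX arrays it ran from 49.5 to 69.9 with a median of 55.2. The groups overlapped throughout, with means of 52.0 ± 8.72 in CINs, 54.5 ± 3.90 in MNs and 57.6 ± 7.18 in MIX. CIN array 3 held the highest CIN signal and CIN array 7 the lowest, and the MN arrays were close together apart from array 6. The log2 difference was -0.08 (SE 0.11) for CIN minus MN, -0.16 (SE 0.10) for CIN minus MIX and -0.07 (SE 0.10) for MN minus MIX.

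The signals of rc_AA800602_s_at were 90.1, 62.8, 63.6, 58.8, 59.2, 67.8 and 60.3 on the CIN arrays and 73.3, 90.7, 67.4, 70.8, 64.1, 70.8 and 90.6 on the MN arrays, with 62.2 to 80.4 and a median of 69.6 on MIX arrays. Apart from CIN array 1, the CIN signals were among the low ones, and MN arrays 2 and 7, which had the lowest AF030358_g_at signals of all, had the highest signals here. The CIN array was the higher in 7 of 49 pairs of CIN and MN arrays. The means were 66.1 ± 11.0 in CINs, 75.4 ± 10.8 in MNs and 70.5 ± 6.38 in MIX. CIN minus MN was -0.19 on the log2 scale (SE 0.12), CIN minus MIX -0.10 (SE 0.10) and MN minus MIX 0.09 (SE 0.10), so that the order of the 3 means was the reverse of that of AF030358_g_at, with differences close to the size of their errors.

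The dimmest member was rc_AI227647_s_at, with 33.9, 32.2, 23.9, 27.8, 29.4, 28.5 and 30.9 on the CIN arrays and 32.6, 33.7, 32.6, 25.6, 31.8, 30.3 and 29.6 on the MN arrays. On MIX arrays it ran from 23.2 to 43.2 with a median of 29.8. The groups overlapped, with means of 29.5 ± 3.25 in CINs, 30.9 ± 2.71 in MNs and 31.1 ± 6.27 in MIX. The log2 difference was -0.07 (SE 0.09) for CIN minus MN, -0.06 (SE 0.11) for CIN minus MIX and 0.01 (SE 0.11) for MN minus MIX.

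**Figure D2:**
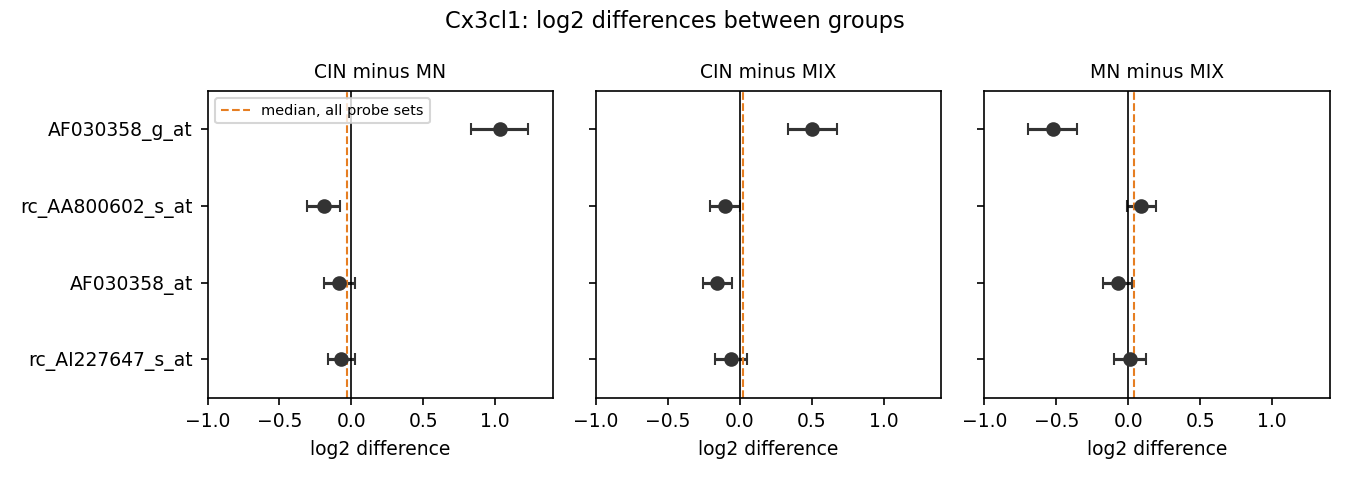
Log2 differences (horizontal axis) of the 4 Cx3cl1 probe sets for CIN minus MN, CIN minus MIX and MN minus MIX, with bars of 1 SE and the median of all 1050 probe sets as a dashed line. AF030358_g_at lies at 1.03, 0.50 and -0.53, and each of the other probe sets lies between -0.19 and 0.09 in every comparison.

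In the limma fit for CIN minus MN, 40 of 1050 probe sets were called, which is 3.81%, and of the 4 Cx3cl1 probe sets AF030358_g_at was the 1 called. Nothing is read from that count, since this comparison brought the gene to notice. AF030358_g_at stood at place 20 of 1050 by p and at place 11 of the 25 probe sets called higher in CINs, and at place 15 of those 25 by the size of the difference. For CIN minus MIX 5 probe sets (0.476%) and for MN minus MIX 10 probe sets (0.952%) were called by limma, and 0 of the 4 Cx3cl1 probe sets were among them in either comparison, with 1 of the 4, AF030358_g_at, at an unadjusted p under 0.05 in each. The median log2 difference of the 4 probe sets was -0.08, -0.08 and -0.03 for CIN minus MN, CIN minus MIX and MN minus MIX, beside -0.03, 0.02 and 0.04 over all 1050.

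In brightness the members were far apart, a property in which the affinity of probes also takes part, so that their signals are no ratio of transcript levels. The mean signal of AF030358_g_at ranked 12th of 1050, and on single arrays its rank ran between 5 and 33. The ranks of the means of rc_AA800602_s_at, AF030358_at and rc_AI227647_s_at were 339, 458 and 846. Their ranks on single arrays were 247 to 416, 313 to 558 and 586 to 954, so none of them came near the top on any array. The pooled SD within groups of AF030358_g_at was 0.35 on the log2 scale and exceeded that of 65.6% of probe sets, whereas those of the other 3 were 0.19, 0.18 and 0.20, below the median of 0.28 over the table.

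Array by array the Cx3cl1 probe sets did not follow each other over the whole set, though some pairs did within a single group. Over the 22 arrays, Pearson's r of the log2 signals of AF030358_g_at and AF030358_at was -0.05 (Spearman's rho -0.08), and 0.17 after the group means were subtracted. Within groups the r of this pair was 0.62 in CINs, 0.01 in MNs and -0.02 in MIX. With rc_AA800602_s_at the r of AF030358_g_at was -0.60 (rho -0.53), and -0.49 with group means subtracted. This inverse relation was seen within CINs (r = -0.60, n = 7) and within MNs (-0.69, n = 7) but not within MIX (0.08, n = 8). With rc_AI227647_s_at it was -0.16. Among the 3 dim probe sets r lay between -0.06 and 0.19 over the 22 arrays. Within groups it varied more, and for AF030358_at with rc_AI227647_s_at it was -0.64 in CINs, 0.15 in MNs and 0.72 in MIX. These correlations describe arrays that share their normalization and carry no test.

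Such disagreement was not rare on this array type. The suffixes _at, _g_at and _s_at mark different probe designs, and probes of some designs may match more than a single sequence. The part of probe design in these differences was not tested. The table holds 76 pairs of _at and _g_at probe sets with a common name, and this look at them was taken after the Cx3cl1 values were seen. Over the 22 arrays their r ran between -0.59 and 0.94 with a median of 0.33, and 19 pairs had a lower r than the Cx3cl1 pair. In the size of the gap between both log2 differences for CIN minus MN the Cx3cl1 pair stood near the end, with a gap of 1.11, beside a median of 0.18 over the 76 pairs and 1 pair with a larger gap. Among the 38 named genes with a probe set called between CINs and MNs, 20 had more than 1 probe set on the array, and each of these 20 had 1 called. Of their 26 uncalled probe sets, 18 had a difference of the same sign as the called one. For Cx3cl1 this was so for 0 of 3, all of them dim.

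**Figure D3:**
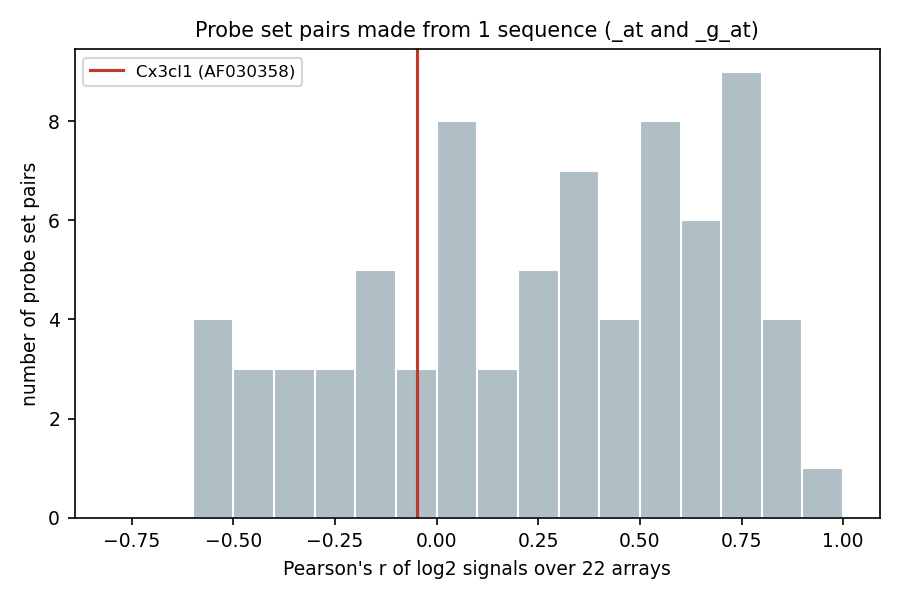
Number of probe set pairs (vertical axis) by Pearson's r of their log2 signals over 22 arrays (horizontal axis), for the 76 pairs of _at and _g_at probe sets that share a name. The line marks the Cx3cl1 pair at -0.05, with 19 pairs below it and the median pair at 0.33.

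The genes whose signals were most like that of AF030358_g_at over the 22 arrays were taken by Pearson's r of log2 signals, as a description. Thra, which encodes a thyroid hormone receptor, came first in its probe set M31174_at (r = 0.76, rho = 0.75), with 2679 ± 369 in CINs, 1787 ± 367 in MNs and 2217 ± 519 in MIX. Another Thra probe set, M31174_g_at, had r = -0.42 with M31174_at, and its CIN minus MN was -0.08 against 0.60 for M31174_at. Hcrtr2, a receptor for orexins, followed (r = 0.75, rho = 0.77), with 154 ± 44.3 in CINs, 27.2 ± 24.7 in MNs and 57.4 ± 39.4 in MIX. Next were Nrxn3, a presynaptic adhesion protein (r = 0.73), Prkcb, a protein kinase C (r = 0.73), and Slc32a1 (r = 0.71). All 5 had their highest group mean in CINs and their lowest in MNs. After group means were subtracted, r was 0.51 for Thra, Nrxn3 and Prkcb, 0.38 for Hcrtr2 and 0.29 for Slc32a1, so part of each likeness was the difference between groups that the genes shared.

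The least alike were 3 genes that were high in MNs. Sncg, which encodes gamma-synuclein, had the lowest r (-0.83, rho -0.79), with 219 ± 95.5 in CINs, 1143 ± 464 in MNs and 500 ± 133 in MIX. The inverse relation was also seen array by array within the labelled groups, with r of -0.61 within CINs and -0.80 within MNs, against 0.34 within MIX. MN arrays 2 and 7, with the lowest AF030358_g_at signals (742 and 896), had the highest Sncg signals (1767 and 1762). Ngfr, the low-affinity neurotrophin receptor, followed with r = -0.72 (rho -0.73), and Slc18a3 with -0.69 (rho -0.83). Within groups the r of Ngfr was 0.02 in CINs, -0.16 in MNs and -0.11 in MIX, and that of Slc18a3 was -0.58 in CINs, -0.07 in MNs and -0.02 in MIX.

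**Figure D4:**
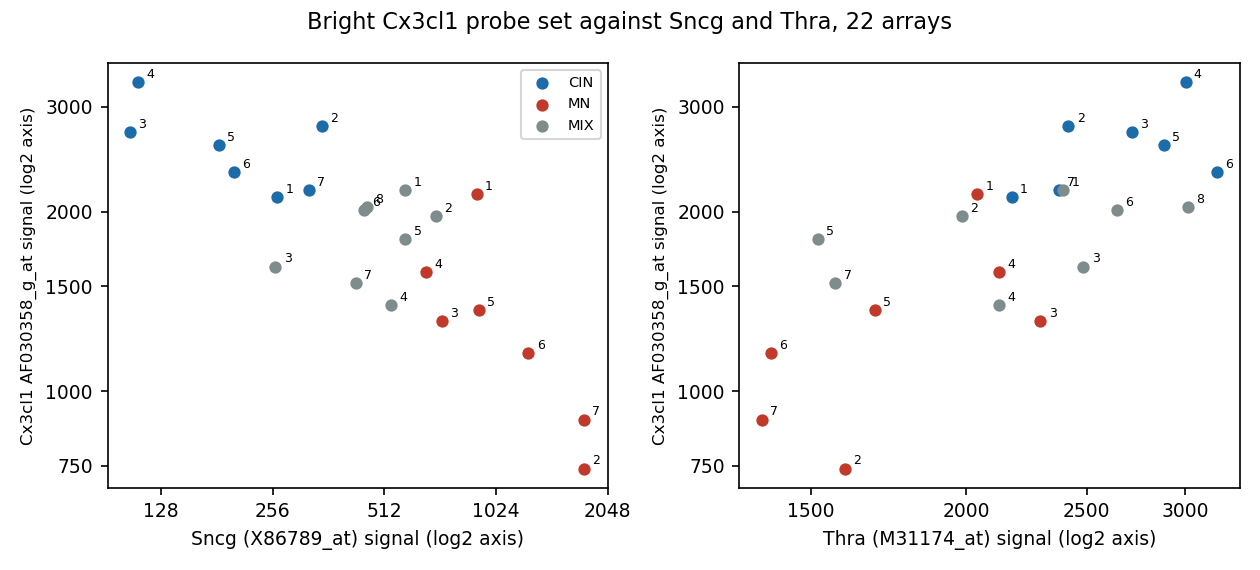
Signal of AF030358_g_at (vertical, log2 axis) against Sncg (left) and the Thra probe set M31174_at (right, horizontal log2 axes) on 22 arrays, numbered within CIN, MN and MIX. AF030358_g_at falls as Sncg rises over the labelled neurons (r = -0.83 over all arrays) and rises with Thra (r = 0.76).

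MN array 1, which had the high AF030358_g_at signal among MNs and the most cells of any array (250), was looked at for its neuronal markers. Its Slc18a3 signal (2692) was the lowest of the MN arrays, which ran to 5211, but above every CIN array, the highest of which was 1133. Its signal in the bright probe set of Nefl, the neurofilament light chain, was 4755, the highest of all MN arrays. In the dim Nefl probe set, M25638_s_at, it was 43.5, near the low end of the MN arrays (42.6 to 73.5). Its Slc32a1 signal was 82.3, the median of the MN arrays. With this array left out, CIN minus MN of AF030358_g_at was 1.16, and with MN array 2, the lowest, left out it was 0.91.

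The most alike genes of the 3 dim probe sets were others. For rc_AA800602_s_at these were Drd4, a dopamine receptor (r = 0.79), Fgf5, a growth factor (0.77), C8b, a complement component (0.77), Oprk1, the kappa opioid receptor (0.76), and Casp2, a caspase (0.75). For AF030358_at they were Prss22, a serine protease (0.72), Il10, a cytokine (0.72), Grm5, a glutamate receptor (0.71), Nos2, the inducible nitric oxide synthase (0.71), and Htr2c, a serotonin receptor (0.69). For rc_AI227647_s_at they were one probe set of Nefh, the neurofilament heavy chain (0.61), Cnga3, an ion channel subunit (0.61), Calcrl, a peptide receptor (0.60), Faslg, a ligand of the tumour necrosis factor family (0.60), and Ifng, interferon gamma (0.59). None of these 15 probe sets was called between CINs and MNs by limma.

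Of 15 further genes of the fractalkine pathway, covering cleavage, integrins and receptor signalling, 2 were measured. Adam17, one of the metalloproteases that shed the ligand, had 37.3 ± 5.23 in CINs, 38.2 ± 5.47 in MNs and 44.5 ± 17.3 in MIX, with CIN minus MN at -0.03 (SE 0.12). A further pair of probe sets is named after the same sequence record but has no gene symbol, so it was not counted. Its CIN minus MN was -0.20 for the _at and 0.39 for the _g_at probe set. Gnb1, a G protein beta subunit, had 5 probe sets, and the brightest, U88324_g_at, gave 464 ± 64.7 in CINs and 375 ± 85.4 in MNs. Of the 6 probe sets of both genes, limma called 0 in each of the 3 comparisons, with 1, 0 and 0 at an unadjusted p under 0.05 for CIN minus MN, CIN minus MIX and MN minus MIX, and their median for CIN minus MN was 0.03. Over all 1050 probe sets, 114, 75 and 124 were at an unadjusted p under 0.05 in these comparisons, and the counts of each list stand beside that background.

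The other chemokines and chemokine receptors measured were few. Of 11 probe sets of 9 such genes, limma called 0 in each comparison, with 1, 0 and 1 at an unadjusted p under 0.05 in the same order, too few probe sets to set against the share called in the table, and the median for CIN minus MN was 0.01. The brightest was Ccr1, a chemokine receptor, at 71.8 ± 25.6 in CINs and 112 ± 53.1 in MNs (log2 difference -0.59, SE 0.26, limma adjusted p = 0.427), followed by Xcl1, the chemokine lymphotactin, at 51.6 ± 7.12 in CINs and 50.0 ± 6.09 in MNs. Of 49 probe sets of cytokines, their receptors and inflammatory enzymes, limma called 0 in each comparison, with 2, 0 and 5 at an unadjusted p under 0.05, and the median for CIN minus MN was -0.05. The brightest were Mif, macrophage migration inhibitory factor, with 247 in CINs and 265 in MNs, and Tnfrsf1a, a tumour necrosis factor receptor, with 176 in CINs and 270 in MNs. Tgfb1, the 1 measured gene of 14 that carry other signals between neurons and microglia, had 34.7 in CINs and 32.9 in MNs (log2 difference 0.08, SE 0.13).

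Few markers of the cells that carry the receptor were on the array. Of 39 genes of microglia and leukocytes, 4 were measured. All but P2rx4 lay below the lowest array median (43.5) on every array, and P2rx4 was at 54.3 in CINs and 56.5 in MNs. These signals are therefore not read as detection. Itgam, an integrin of these cells, ran from 14.1 to 19.4 on CIN arrays, 15.0 to 19.6 on MN arrays and 14.9 to 27.5 on MIX arrays. The summed signal of the 4 probe sets was 89.5 to 121 in CINs, 99.3 to 119 in MNs and 94.1 to 156 in MIX, with the ranges overlapping. Limma called 0 of the 4 in each comparison, with 0, 2 and 0 at an unadjusted p under 0.05, and the brightest, P2rx4 and P2rx7, which are ATP-gated channels, gave CIN minus MN differences of -0.08 (SE 0.15) and -0.13 (SE 0.10).

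Among markers of other cells, Apoe moved in the same direction as AF030358_g_at. Apoe, an apolipoprotein that astrocytes make, had in its probe set X04979_at 6027 ± 869 in CINs, 3768 ± 798 in MNs and 4959 ± 1463 in MIX (CIN minus MN 0.69, SE 0.15, limma adjusted p = 0.0125). It was the 1 called of 10 probe sets of 6 astrocyte genes, with 3, 0 and 2 at an unadjusted p under 0.05 for CIN minus MN, CIN minus MIX and MN minus MIX. Over these 10, CIN minus MN ran from -0.25 to 0.79 with a median of 0.12. Their summed signal, most of it from X04979_at, was 5858 to 9177 in CINs, 4381 to 6643 in MNs and 3775 to 9811 in MIX. The second probe set of Apoe, S76779_s_at, gave 0.79 for CIN minus MN (SE 0.24, limma adjusted p = 0.118), and S100b, a calcium-binding protein of astrocytes, gave 0.53 (SE 0.18, limma adjusted p = 0.170), with 1103 in CINs and 771 in MNs; both were named after their values were seen. The defining astrocyte gene Gfap was read as not expressed by the study, which counted Apoe, like all genes it found to differ, as neuron related. In probe sets named after the study's text, Gfap gave 29.2 ± 4.26 and 48.3 ± 11.8 in CINs and 30.1 ± 3.60 and 53.9 ± 7.74 in MNs. Within groups the r of AF030358_g_at with Apoe was -0.14 in CINs, -0.54 in MNs and 0.21 in MIX, and its part in the difference was not tested further. Of 12 probe sets of oligodendrocyte genes and 6 of vessel genes, limma called 0 between CINs and MNs, with 3 and 0 at an unadjusted p under 0.05. Their brightest genes were Cnp at 220 in CINs and 227 in MNs, Pdgfra at 229 in CINs and 134 in MNs in 1 probe set (log2 difference 0.83, SE 0.32) with differences between -0.17 and 0.09 in its others, Icam1 at 51.4 in CINs and 60.0 in MNs, and Pdgfrb at 39.6 in CINs and 36.8 in MNs. The 1 called probe set of Schwann cell genes was that of Ngfr, which motoneurons also express, lower in CINs by 2.17 on the log2 scale.

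The number of cells cut for an array was set against each probe set within each group. For AF030358_g_at r was 0.29 in CINs (rho = 0.25, exact permutation p = 0.533 for r and 0.579 for rho), 0.24 in MNs (rho = 0.43, p = 0.607 and 0.354) and 0.50 in MIX (rho = 0.52, p = 0.208 and 0.192). Without the 2 arrays farthest from the median cell number, r was 0.25 in CINs, 0.90 in MNs and -0.17 in MIX, so the values in MNs and MIX rest on those arrays. Over the 12 relations computed, r ran between -0.25 and 0.50, and the lowest Benjamini-Hochberg adjusted exact permutation p, two-sided, was 0.915 for r and 0.892 for rho. In AF030358_g_at, CIN arrays 1 and 2 overlapped with CIN arrays 3 to 7. MN array 1 lay above all of MN arrays 3 to 7, and MN array 2 lay below them. The CIN arrays gave 2116 to 2785 for numbers 1 and 2 and 2176 to 3300 for numbers 3 to 7. The MN arrays gave 742 to 2142 for numbers 1 and 2 and 896 to 1586 for numbers 3 to 7. MN arrays 1 and 2 were also those with the most cells among MNs, 250 and 230.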

How the data were processed

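RNA of laser microdissected rat spinal neurons had been amplified and hybridized to RN_U34 arrays, 1 animal per array. The intensity values deposited by the authors were linear Li-Wong summaries of perfect match probes, after background subtraction within each array and normalization over all 22 arrays, with the affy package among the tools named. The study then subtracted the lowest summary value of the whole set, a step that it says raises ratios between samples. The lowest deposited value was 1. Of 1050 probe sets, 961 had 1 gene symbol in the platform annotation, 7 several and 82 none.

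Values were log2-transformed without an offset and fitted with limma 3.58.1 in R 4.3.3, CIN minus MN on 14 arrays and the MIX comparisons on 22. Numbers of cells were tested by exact permutation (scipy 1.17.1). Figures used matplotlib 3.10.9. The scripts were tested on simulated data. The members and lists were chosen with earlier results of these data known. Genes named were the members, the 5 most alike of each, the 3 least alike to AF030358_g_at, and from each list the called genes or else the 2 brightest. Tests planned for Cx3cr1 were not run, as it has no probe set here. Alternatives changed the scale, filter, normalization, weights, covariates and arrays. No coordinates or sequences are given, since no build is named in the sources used here.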

Additional observations from a re-analysis of the deposited data

Results flagged for a closer look

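In 2 of the 12 groups of arrays examined (3 groups for each of 4 probe sets), a single array lay far from the rest, where chance alone gives about 1 in 20. For rc_AA800602_s_at, CIN array 1 had a signal of 90.1 and the next highest CIN array 67.8, a gap of 0.665 of the range of the CIN arrays. For AF030358_at, MN array 6 had 62.7 and the next highest MN array 55.9, a gap of 0.571 of the range, just past the critical value of 0.568. AF030358_g_at had no such array in any group.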

How the results depend on the processing

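The log2 difference of AF030358_g_at, given as a description, was 0.91 to 1.16 for CIN minus MN over 14 fits that each left out 1 array and 0.97 to 1.13 over 13 other settings. For CIN minus MIX it was 0.44 to 0.55 when 1 array was left out and 0.49 to 0.65 otherwise, and for MN minus MIX -0.66 to -0.40 and -0.55 to -0.41. AF030358_g_at, called in neither MIX comparison as reported, was called in a few of the alternatives. For CIN minus MIX these were 2 of 34, with cell number as a covariate and with only array numbers 3 to 7. For MN minus MIX it was 1 of 34, with array weights. Of 374 values of the 4 probe sets under alternatives, 374 moved by less than 1 SD of the replicates. Most of these alternatives left out 1 array, which can move a group mean by only a part of its SD. Some could not move the value at all, so this count says little about robustness. AF030358_at and rc_AI227647_s_at were removed by a filter at a mean log2 signal of 6. The number of probe sets called for CIN minus MN, 40 as reported, was 76 with array weights and 83 with array numbers 1 and 2 against 3 to 7 as a covariate, and 31 to 55 when 1 array was left out. Over all alternatives it ran between 1 and 68 for CIN minus MIX, 5 as reported (1 at an adjusted p under 0.05 or without CIN array 3, 68 with cell number as a covariate), and between 2 and 33 for MN minus MIX, 10 as reported (2 at an adjusted p under 0.05 or without CIN array 5, 33 with array weights). The causes were not tested. CIN and MN arrays share replicate numbers, but deviations of same-numbered arrays correlated between -0.19 and 0.53, and 2 of 7 CIN arrays correlated best with their own number, so the numbers were not taken as pairs. With the replicate block, 55 probe sets were called, and the difference of AF030358_g_at was 1.03.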
